A study of Homo sapiens with 12 samples.

Results

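The 39 genes whose symbol is HOX, a cluster letter and a position number were taken from the 57500 genes of a bulk RNA-seq count table of 3 human cancer cell lines. HOX genes encode homeodomain transcription factors that set position along the body axis. They lie in 4 clusters in which gene order follows the order of expression along the axis, so low position numbers (anterior genes) mark front regions and high numbers (posterior genes) mark rear and distal regions. Epithelia keep part of this code in the adult, including those of the colon and of the female reproductive tract, and carcinomas often express HOX genes outside their usual domain. HOX proteins bind DNA with TALE-class partners (the PBX, MEIS and PKNOX homeodomain proteins). Polycomb complexes keep clusters silent, MLL complexes keep them active, CTCF with cohesin divides a cluster into domains, and retinoic acid switches on its anterior end.

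The table held 12 libraries in 4 groups of 3 biological replicates. PEO4, an ovarian carcinoma line grown in RPMI 1640 with 10% fetal bovine serum, was kept in control medium or given recombinant human TGF-β at 10 ng/mL for 6 days. SW480, a colorectal carcinoma line from a primary tumour, and SW620, a line from a metastasis of the same patient, were grown untreated in DMEM with 10% serum. Each is a cell line, so each group describes cultures of 1 line. The p-values set differences between groups against the spread between libraries of such cultures. The series compares SW620 with SW480 and treated with control PEO4. A comparison of control PEO4 with both colorectal lines was added here, and in it line, tissue of origin and medium cannot be told apart.

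All 39 gene identifiers were found in GENCODE 29, whose coordinates are on GRCh38. Cluster A has 11 genes over 107.1 kb of chromosome 7 (27092993 to 27200106, minus strand). Cluster B has 10 genes over 200.7 kb of chromosome 17 (48528526 to 48729178, minus strand). Cluster C has 9 genes over 117.3 kb of chromosome 12 (53938765 to 54056030, plus strand), and cluster D has 9 genes over 98.0 kb of chromosome 2 (176092891 to 176190907, plus strand). By position, 8 genes are anterior (1 to 3), 15 central (4 to 8) and 16 posterior (9 to 13).

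The homeobox, a stretch of 180 bases in every HOX coding sequence, is shown for HOXB2, the gene with the highest level per length in PEO4. Capitals mark bases 142 to 159, which encode the core of the third helix, the part of the homeodomain that lies in the major groove of DNA. The coding strand is given 5′ to 3′, from the GENCODE 29 transcripts.
HOXB2: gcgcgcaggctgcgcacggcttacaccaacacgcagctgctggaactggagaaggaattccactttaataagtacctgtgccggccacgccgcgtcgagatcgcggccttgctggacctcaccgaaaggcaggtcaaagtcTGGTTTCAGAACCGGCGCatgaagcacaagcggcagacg

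The 4 genes at position 13 are shown as well because the copies of this position went opposite ways between SW480 and SW620, with HOXC13 higher in SW620 and the other 3 lower. Capitals have the same meaning.
HOXA13: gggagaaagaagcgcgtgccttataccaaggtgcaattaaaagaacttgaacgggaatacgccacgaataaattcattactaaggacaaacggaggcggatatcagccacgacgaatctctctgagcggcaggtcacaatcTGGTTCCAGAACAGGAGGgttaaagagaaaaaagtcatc
HOXB13: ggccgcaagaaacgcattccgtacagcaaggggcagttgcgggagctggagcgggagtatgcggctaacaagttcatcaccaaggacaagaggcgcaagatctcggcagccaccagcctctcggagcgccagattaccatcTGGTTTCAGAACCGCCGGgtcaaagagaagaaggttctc
HOXC13: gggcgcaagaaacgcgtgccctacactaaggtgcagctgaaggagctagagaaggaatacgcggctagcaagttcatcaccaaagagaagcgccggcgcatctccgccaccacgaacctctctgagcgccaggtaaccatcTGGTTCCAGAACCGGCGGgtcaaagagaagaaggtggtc
HOXD13: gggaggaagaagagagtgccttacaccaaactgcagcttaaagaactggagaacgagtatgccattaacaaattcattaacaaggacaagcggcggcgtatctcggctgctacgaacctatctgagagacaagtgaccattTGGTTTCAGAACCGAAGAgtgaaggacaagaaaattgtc

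Homeoboxes of the same position in different clusters (paralogues) were 69.4% to 90.6% identical over 42 pairs, with a median of 81.7%. Pairs from different positions had a median of 60.6% over 699 pairs. At position 13, HOXB13 and HOXC13 were 80.0% identical and HOXA13 and HOXB13 were 69.4% identical. Among pairs of the same position, the longest run of identical coding bases was 62, between HOXB3 and HOXD3. HOX genes also overlap in the annotation. Exons shared with another gene on either strand covered 80.5% of HOXD4, 74.1% of HOXD3, 62.5% of HOXA7, 59.9% of HOXC5 and 58.1% of HOXD1, but 0% of HOXB7, HOXB8, HOXB9, HOXB13, HOXD9 and HOXD13. For HOXD4, HOXC5 and most of HOXD3 the sharing was with genes on the same strand, and for HOXA7 and most of HOXD1 with genes on the opposite strand. How reads in shared exons were assigned, and whether the counting used strand, is not given in the sources used here. The values of these 5 genes, which had the largest shared parts, are therefore uncertain. The same limit holds for other genes with shared exon, among them HOXA4 (47.3%), HOXA6 (40.1%), HOXB6 (32.9%), HOXB4 (17.1%), HOXB3 (13.2%) and HOXA9. HOXB4 and HOXB6 shared exon with HOXB3 on the same strand.

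Total counts per library ran from 14531420 to 22028956, and values below are counts-per-million (CPM) values on totals scaled by edgeR's TMM method, unless given per length. A floor of 3 counts per library corresponds to 0.149 to 0.167 CPM as group means. PAX8 and CDX2, defining markers of the 2 tissues, were present in the lines labelled with them. PAX8, a transcription factor of Müllerian epithelium, was at 555 ± 19.1 CPM in control PEO4 (mean ± SD, n = 3, as throughout). CDX2, the caudal factor of intestinal epithelium, reached 18.8 ± 2.37 CPM in SW480 and 18.3 ± 4.05 CPM in SW620. No PEO4 library had over 3 counts of CDX2. Of 6 Müllerian and ovarian carcinoma markers, 5 were higher and 1 lower in control PEO4 than in the colorectal lines. All 5 intestinal markers were lower there. Over all genes tested, 28.9% were higher and 29.1% lower. The Müllerian markers were not absent from the colorectal lines, where all 6 had a library above 3 counts. They summed to 107 to 129 CPM in SW480 and 120 to 165 CPM in SW620, against 5337 to 8681 CPM in control PEO4. The intestinal markers summed to 35.2 to 57.5 CPM in SW480, 192 to 286 CPM in SW620 and 0.802 to 2.69 CPM in control PEO4. Genes high in 1 tissue's lines and nearly silent in a sister group had, in the other tissue's libraries, a median of 0.256% to 1.32% of their level. That share was highest in replicate 3 of SW620 (1.24%), of control PEO4 (1.10%) and of treated PEO4 (1.32%). Among the 34 tested HOX genes, replicate 2 of SW480 was the lowest library of its line for 20 and the highest for 12. Replicate 2 of SW620 was the lowest for 14 and the highest for 11. It was the highest library in both lines for 9 genes and the lowest in both for 12. These counts were not set against those over all genes.

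PEO4 expressed HOX genes almost wholly from 1 stretch of cluster B. Cluster B gave 99.1 ± 0.234% of the HOX CPM of control PEO4, and HOXB2, HOXB3 and HOXB4, anterior to central genes best known from hindbrain and blood progenitors, were the only members at 10 CPM or more. HOXB2 had 320, 247 and 261 CPM in the control libraries and 268, 307 and 239 CPM with TGF-β. HOXB3 had 405, 363 and 405 CPM in control and 375, 388 and 385 CPM with TGF-β. HOXB4 had 168, 143 and 157 CPM in control and 178, 184 and 178 CPM with TGF-β. The first 2 genes overlapped between the groups, and the HOXB4 libraries did not.

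Per length, as CPM per kilobase of exon, the order in control PEO4 was HOXB2 (118 ± 16.6), HOXB3 (52.5 ± 3.24) and HOXB4 (41.5 ± 3.27), a long way above HOXB7 (1.80 ± 0.436). The edges of the block were steep on both sides. HOXB1, next to HOXB2, had at most 4 counts in any of the 12 libraries, and HOXB5, next to HOXB4, was at 0.417 ± 0.0583 per kilobase in control PEO4. Outside cluster B the highest control level per length was that of HOXC4, at 1.25 ± 0.0958. In clusters A and D the leading genes were HOXA7 at 0.298 and HOXD8 at 0.149 per kilobase in control, and HOXA5 at 0.322 and HOXD8 at 0.085 with TGF-β. The treated libraries of HOXA5 and HOXA7 overlapped. With all counts of a gene divided by the length of its exon shared with no other gene, HOXA7 came first there. That changed the length only, since reads were not limited to such exon. HOXD3, HOXD4 and HOXD12 had no count in any of the 6 PEO4 libraries, which allows at most 3 counts in each.

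**Figure D1:**
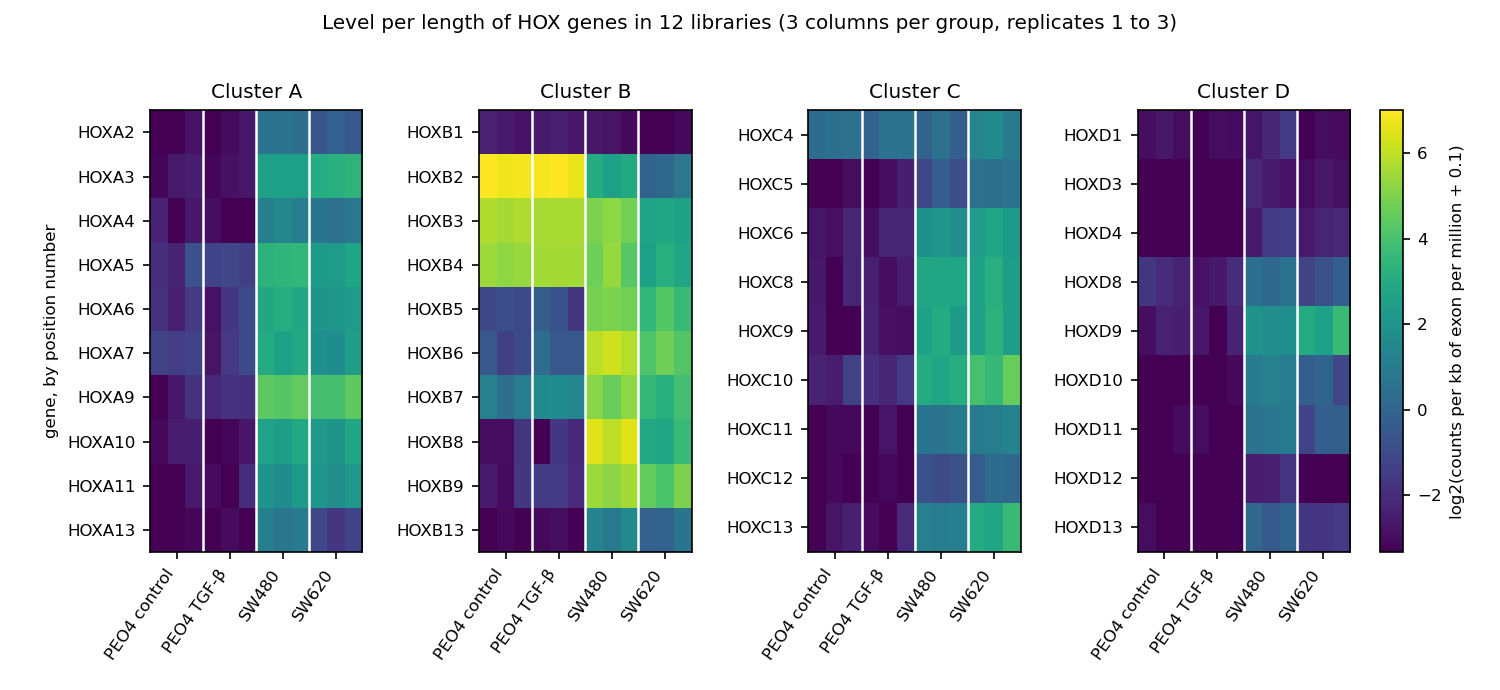
Level per length, as log2 of CPM per kilobase of exon plus 0.1 (colour), of HOX genes (rows, by cluster and position number) in the 12 libraries (columns, 3 per group). PEO4 shows 1 bright stretch, HOXB2 to HOXB4 (control means 118, 52.5 and 41.5 CPM per kilobase), while both colorectal lines show signal across all 4 clusters.

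The low PEO4 values were set against the share of other-line signal above. Of the 39 genes, 7 exceeded 3 times that share in all 6 PEO4 libraries: HOXB2, HOXB3, HOXB4, HOXB7, HOXC4 and HOXD8, and HOXB1, which had few counts in all lines. Another 11, HOXA9, HOXB8, HOXB9 and HOXC13 among them, exceeded it in none. Whether such low PEO4 counts come from reads of the colorectal libraries was not tested. By counts, 22 HOX genes had a control PEO4 library above 3 counts and 8 had at least 10 counts in every control library. With TGF-β the numbers were 23 and 7.

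SW480 and SW620 expressed all 4 clusters. A mean of 1 CPM or more was reached by 33 genes in each line, against 6 in each PEO4 group. In SW480 the leading gene per length was HOXA9 in cluster A (21.1 ± 1.96), HOXB8 in B (81.8 ± 16.5), HOXC10 in C (7.78 ± 0.879) and HOXD9 in D (3.44 ± 0.236). In SW620 it was HOXA9 (17.3 ± 3.47), HOXB9 (23.8 ± 7.05), HOXC10 (17.1 ± 6.20) and HOXD9 (8.90 ± 3.56). HOXA9, HOXC10 and HOXD9 are posterior genes, and HOXA9 is a known driver of myeloid leukaemia. HOXA9 and HOXD9 stood clear of the next gene of their cluster in both lines. The libraries of HOXB8 and HOXB6 (65.7 ± 10.3) overlapped in SW480, as did those of HOXB9, HOXB6 (21.4 ± 5.19) and HOXB5 (14.3 ± 4.34) in SW620, and those of HOXC10 overlapped the next gene in both lines. With all counts divided by the length of exon shared with no other gene, HOXB6 came first in cluster B in both lines. Reads were not limited to that exon, so the order over it was not measured.

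HOX RNA as a whole was lower in SW620. The 39 genes summed to 1221 ± 31.8 CPM in SW480 (1187 to 1250) and 566 ± 66.3 CPM in SW620 (508 to 638), a ratio of 2.16. The difference lay mainly in cluster B. It summed to 936 ± 47.7 CPM in SW480 (887 to 982) and 265 ± 24.2 CPM in SW620 (237 to 282), and its share of HOX CPM was 76.6 ± 1.93% and 46.9 ± 2.77%. Cluster C went the other way, from 69.7 ± 2.51 CPM in SW480 (67.3 to 72.3) to 125 ± 14.8 CPM in SW620 (112 to 141). The libraries of the 2 lines overlapped for cluster A (194 ± 17.7 and 155 ± 26.5 CPM) and cluster D (21.2 ± 1.09 and 21.9 ± 6.57 CPM). A sum weights abundant genes most, and no test was run on the sums, since an exact permutation test of 3 against 3 cannot go below p = 0.1.

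**Figure D2:**
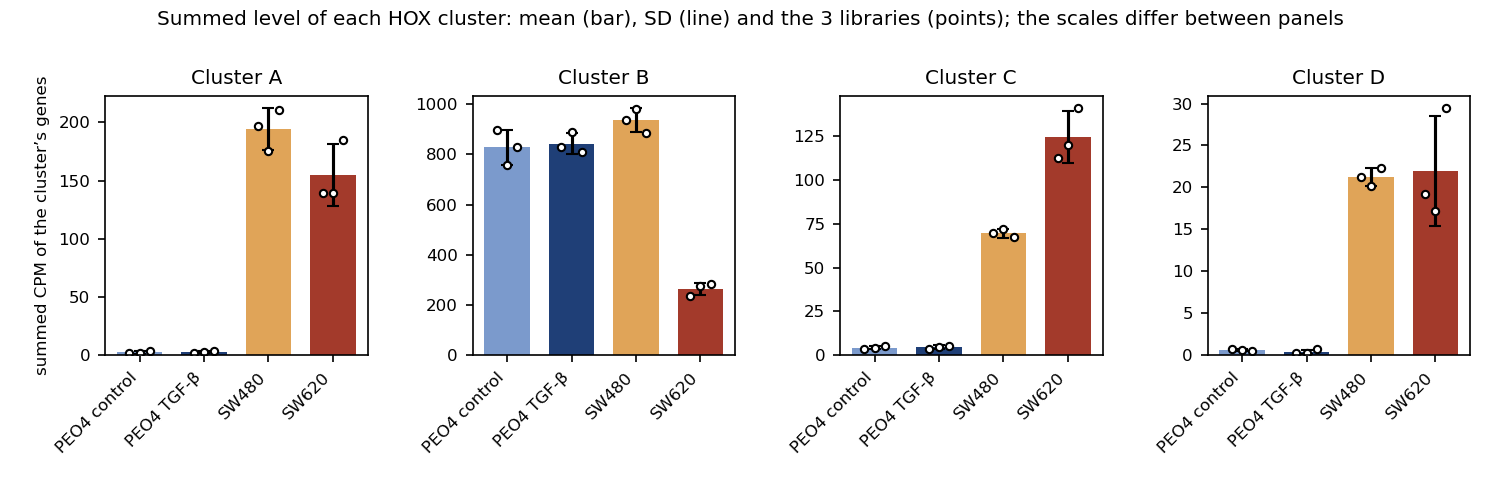
Summed CPM of the HOX genes of each cluster in the 4 groups: bars are means, lines the SD and points the 3 libraries, with a scale of its own in each panel. Cluster B is at 887 to 982 CPM in SW480 and 237 to 282 CPM in SW620, while cluster C is higher in SW620 (112 to 141 CPM) than in SW480 (67.3 to 72.3 CPM).

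Gene by gene, 34 of the 39 members passed the filter on low counts in the colorectal lines, and 27 differed at an adjusted p under 0.05 (edgeR's quasi-likelihood test, Benjamini-Hochberg over all 20941 genes tested). Of these, 8 were higher and 19 lower in SW620. Of all genes tested, 30.5% were called, 13.5% higher and 17.0% lower. With the replicate number as a block, 28 HOX genes and 50.9% of all genes were called. The median log2 fold change, SW620 over SW480, was −0.83 over the 34 members and 0.03 over all genes tested. The libraries of the 2 lines did not overlap for 29 of the 34, against 43.9% of all genes. The genes left untested were HOXB1, HOXD1, HOXD3, HOXD4 and HOXD12, with at most 9 counts in any colorectal library. HOXD12 had 2, 2 and 5 counts in SW480 and 0 in each SW620 library.

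With 1 library left out the number of HOX genes called ran from 15 to 25. It was 15 without SW480 replicate 1, 16 without SW480 replicate 3 and 17 without SW620 replicate 1. HOXA2, HOXA6, HOXA7, HOXC6 and HOXC12 also missed the threshold under 1 or more alternatives other than a left-out library (adjusted p 0.054 to 0.093). All 27 called genes kept their direction in every alternative fit, and 15 were called in each one, among them HOXA3, HOXA5, HOXA13, HOXB2 to HOXB8, HOXC10, HOXC13, HOXD9 and HOXD10. Without replicate 2 of both lines, 24 were called.

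Every tested gene of cluster B, 9 of 9, fell in SW620. HOXB8, a central gene with a role in blood progenitors, had 187, 129 and 187 CPM in SW480 and 15.2, 14.2 and 26.3 CPM in SW620. Its log2 fold change was −3.15 (SE 0.28, adjusted p = 5.46e-05), an 8.91-fold difference, and no SW620 library came near the SW480 range. HOXB3 had 230, 279 and 205 CPM in SW480 and 47.5, 54.0 and 44.6 CPM in SW620, a log2 fold change of −2.27 (SE 0.19, adjusted p = 3.55e-05). HOXB4 had 99.1, 160 and 75.4 CPM against 21.8, 33.8 and 24.7 CPM, a log2 fold change of −2.04 (SE 0.30, adjusted p = 0.000912). The high HOXB4 library in each line was replicate 2, which was also high for HOXB3 and HOXB6. HOXB6 had 163, 201 and 149 CPM in SW480 and 46.5, 71.2 and 49.4 CPM in SW620 (log2 fold change −1.60, SE 0.22, adjusted p = 0.000637).

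HOXB2 had 19.5, 13.1 and 17.6 CPM in SW480 and 1.90, 2.31 and 3.81 CPM in SW620, a log2 fold change of −2.62 (SE 0.30, adjusted p = 0.000235). Because HOXB2 is abundant in PEO4, its SW620 counts of 39, 43 and 82 were set against the share of other-line signal, which corresponds to 15.1, 13.0 and 72.8 counts. Without SW620 replicate 3 the log2 fold change was −2.98. The central genes HOXB5 and HOXB7 fell as well (log2 fold change −1.01, SE 0.22, adjusted p = 0.0073, and −1.47, SE 0.24, adjusted p = 0.00174).

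The 2 posterior genes of cluster B were the least stable calls in it. HOXB9 had 116, 93.8 and 127 CPM in SW480 and 61.0, 43.4 and 79.7 CPM in SW620 (log2 fold change −0.85, SE 0.23, adjusted p = 0.0218). HOXB13, a gene of hindgut and prostate epithelium, had 8.45, 5.84 and 10.2 CPM against 2.77, 2.91 and 5.20 CPM (−1.15, SE 0.33, adjusted p = 0.029). Both lost the call without SW480 replicate 1, SW480 replicate 3 or SW620 replicate 1, and HOXB13 also without SW620 replicate 2 (adjusted p 0.098 to 0.116 for HOXB9 and 0.059 to 0.138 for HOXB13).

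**Figure D3:**
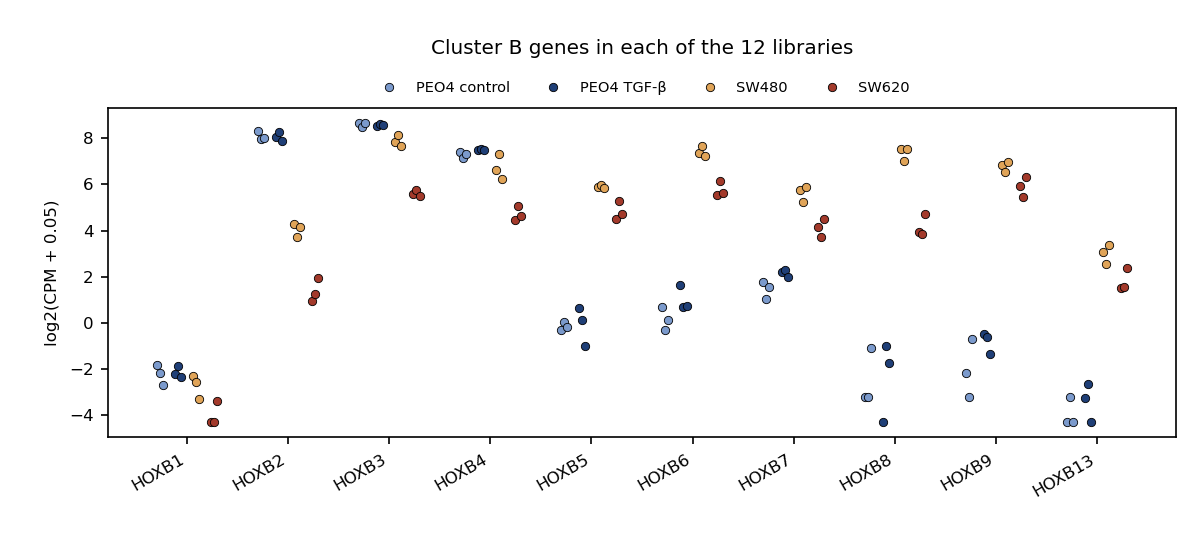
Log2 of CPM plus 0.05 of the cluster B genes, ordered by position, with 1 point per library coloured by group. PEO4 is high at HOXB2 to HOXB4 and low from HOXB5 on, and the SW620 libraries lie below all SW480 libraries at the 9 genes tested, with the widest gap at HOXB8 (8.91-fold).

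Cluster C was the reverse: 6 of its 9 genes, all tested, rose in SW620 and none fell. HOXC13, a posterior gene of hair and nail epithelium, had 5.23, 4.73 and 4.89 CPM in SW480 and 19.5, 15.9 and 30.8 CPM in SW620. Its log2 fold change was 2.17 (SE 0.26, adjusted p = 0.0003), a 4.51-fold difference. HOXC10, a posterior gene of the lumbar region and hindlimb, had 18.8, 15.8 and 19.8 CPM in SW480 and 36.8, 27.3 and 55.7 CPM in SW620, a log2 fold change of 1.16 (SE 0.25, adjusted p = 0.00745). In both genes replicate 2 was the lowest library of its line, and the lines did not overlap.

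The other 4 calls of cluster C were HOXC4 (log2 fold change 1.31), HOXC5 (1.39), HOXC6 (0.61) and HOXC12 (1.05). HOXC6, the most abundant of them, had 12.4, 14.8 and 11.6 CPM in SW480 and 18.1, 23.2 and 17.1 CPM in SW620. Each of these 4 lost its call when 1 of several libraries was left out. HOXC4 and HOXC5 did so without SW480 replicate 1 or 3 or SW620 replicate 1 (adjusted p 0.052 to 0.068 and 0.081 to 0.123), and HOXC6 without those or SW620 replicate 2 (0.067 to 0.176). HOXC12 did so in 5 of the 6 fits with a library left out, all but that without SW620 replicate 1 (0.080 to 0.134), and also under limma-voom. HOXC8, HOXC9 and HOXC11, between the genes that rose, had log2 fold changes of −0.01, 0.18 and 0.40 with adjusted p values of 0.974, 0.70 and 0.259.

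In cluster A, 6 genes fell, 1 rose and 4 did not pass the test. HOXA13, the most posterior gene and a marker of hindgut and distal limb, had 10.6, 7.88 and 9.36 CPM in SW480 and 1.85, 1.08 and 1.72 CPM in SW620. Its log2 fold change was −2.55 (SE 0.30, adjusted p = 0.000244), a 5.87-fold difference. HOXA3 was the exception, with 24.9, 24.8 and 25.0 CPM in SW480 and 35.6, 40.1 and 44.8 CPM in SW620 (0.71, SE 0.15, adjusted p = 0.00646).

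HOXA5, a lung and gut patterning gene, had 17.3, 18.3 and 19.2 CPM in SW480 and 8.27, 8.82 and 11.3 CPM in SW620 (log2 fold change −0.93, SE 0.19, adjusted p = 0.00483). HOXA2, HOXA6 and HOXA7 fell by 1.04, 0.76 and 0.81 on the log2 scale. HOXA2 lost its call in 5 of 6 fits with 1 library left out, all but that without SW620 replicate 2 (adjusted p 0.058 to 0.147), HOXA6 in all but that without SW620 replicate 3 (0.054 to 0.123), and HOXA7 without SW480 replicate 1 or 3 or SW620 replicate 1 or 2 (0.081 to 0.178). HOXA9, the gene of highest level in the cluster, did not pass the test. It had 63.7, 58.3 and 70.2 CPM in SW480 and 46.1, 46.8 and 64.7 CPM in SW620 (−0.27, SE 0.18, adjusted p = 0.307), with overlapping libraries. HOXA10 had a log2 fold change of −0.32 (adjusted p = 0.323, and 0.0383 with the replicate number as a block), HOXA11 of 0.04 (adjusted p = 0.924) and HOXA4 of −0.51 (adjusted p = 0.230).

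In cluster D all 5 tested genes were called, 1 higher and 4 lower. HOXD9, a posterior gene, had 6.89, 6.01 and 6.38 CPM in SW480 and 14.9, 11.0 and 24.0 CPM in SW620 (log2 fold change 1.39, SE 0.28, adjusted p = 0.00539). Its neighbours on both sides fell: HOXD8 had 3.37, 2.57 and 3.70 CPM against 0.876, 1.29 and 1.95 CPM (−1.20, SE 0.39, adjusted p = 0.0463), and HOXD10 had 5.03, 5.84 and 5.14 CPM against 2.09, 2.42 and 0.975 CPM (−1.52, SE 0.37, adjusted p = 0.0136). HOXD13, the most posterior gene and a digit patterning factor, had 2.31, 1.46 and 2.01 CPM against 0.487, 0.430 and 0.511 CPM (−1.98, SE 0.42, adjusted p = 0.00662, and 0.054 without SW480 replicate 1). HOXD11 had 2.87, 3.33 and 3.81 CPM against 0.681, 1.56 and 1.62 CPM (−1.35, SE 0.41, adjusted p = 0.0343). HOXD8 lost its call without SW480 replicate 1 or 3 or SW620 replicate 1 or 2 (0.083 to 0.176), and HOXD11 without any SW480 library or SW620 replicate 1 (0.063 to 0.120).

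**Figure D4:**
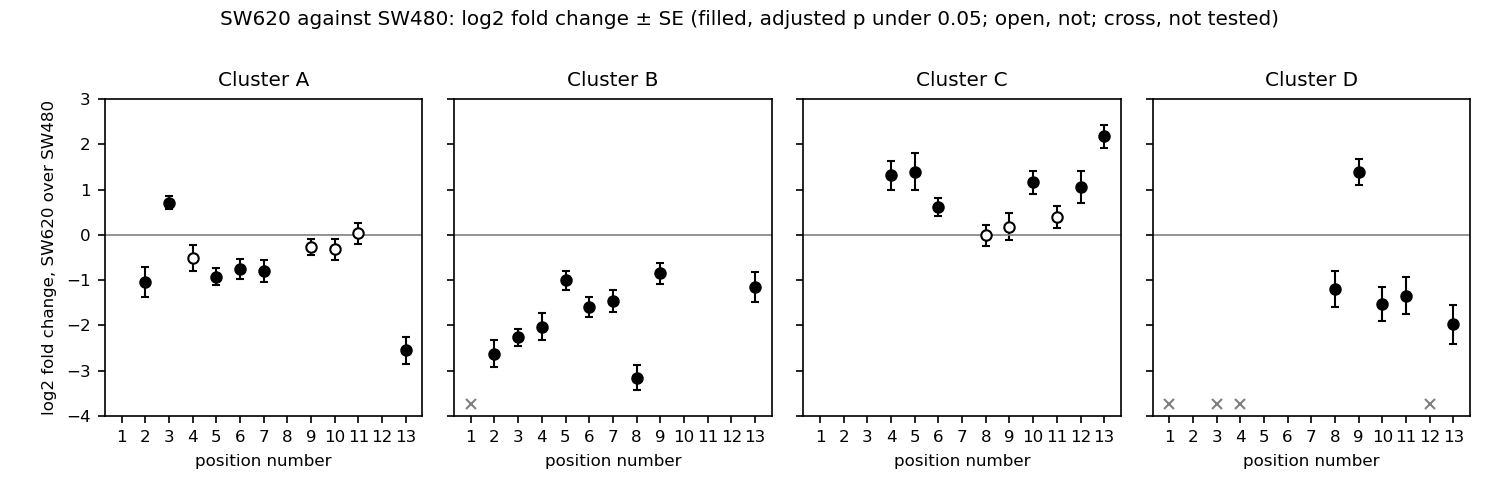
Log2 fold change of SW620 over SW480 with its standard error against position number, 1 panel per cluster, for tested HOX genes (filled, adjusted p under 0.05; open, not; crosses, the 5 untested genes). All 9 tested cluster B genes lie below 0, and the 6 filled cluster C genes lie above 0, from 0.61 to 2.17.

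By axial position, all 5 tested anterior genes were called (1 higher, 4 lower), 12 of 14 central genes (3 higher, 9 lower) and 10 of 15 posterior genes (4 higher, 6 lower). Of all genes tested, 30.5% were called, 13.5% higher and 17.0% lower. Calls kept in every fit with 1 library left out numbered 4 anterior, 6 central and 5 posterior. The anterior sum was 3.04-fold lower in SW620 and the central sum 2.94-fold lower, with no overlap of libraries. Cluster B held most of both sums (4.96-fold and 3.78-fold lower for its own anterior and central genes), whereas the anterior sum of cluster A was 1.15-fold higher in SW620 with overlapping libraries and the central sum of cluster C 1.39-fold higher without overlap. The posterior sum was 284 CPM in SW480 and 250 CPM in SW620, with overlapping libraries, so posterior genes held 23.3 ± 3.21% of HOX CPM in SW480 and 44.0 ± 6.82% in SW620. Copies of 1 position did not move together: at position 13 HOXA13, HOXB13 and HOXD13 fell and HOXC13 rose, and at position 9 HOXB9 fell, HOXD9 rose, and HOXA9 and HOXC9 did not pass the test.

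Markers of cell type differed between the 2 lines as well, where 30.5% of all genes tested were called. Of 5 intestinal epithelial markers 4 were tested, and VIL1, CDH17 and LGALS4 rose in SW620 (log2 fold change 3.00, 2.61 and 1.55) while CDX2 did not pass the test (−0.02, SE 0.20, adjusted p = 0.96). Their summed level was 35.2 to 57.5 CPM in SW480 and 192 to 286 CPM in SW620. The LGALS4 call was lost in 5 of 6 fits with a library left out, all but that without SW620 replicate 3 (adjusted p 0.069 to 0.136), and without a count filter (0.068). Of 8 markers of leukocytes, endothelium and stroma, 5 were tested, PECAM1 and LUM rose and COL1A1 fell. Their sum was 14.0 to 16.1 CPM in SW480 and 13.1 to 26.3 CPM in SW620. No marker was at 0 in all libraries of a line. The part of these differences in the HOX result was not tested.

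In PEO4, none of the 9 HOX genes that passed the filter was called after 6 days of TGF-β. Of all 19064 genes tested, 2.26% were called. The 9 were HOXA7, HOXC4 and 7 genes of cluster B, and their median log2 fold change, treated over control, was 0.18 against −0.02 over all genes tested. At an unadjusted p under 0.05, edgeR passed 3175 genes in all and 2 HOX genes, HOXB4 and HOXB7, and DESeq2 called 0 HOX genes after adjustment. These 2 were also the only ones of the 9 whose libraries did not overlap, against 20.0% of all genes. HOXB7 had 3.32, 2.02 and 2.90 CPM in control and 4.51, 4.79 and 3.95 CPM with TGF-β (log2 fold change 0.65, SE 0.23, adjusted p = 0.201). HOXB4 had a log2 fold change of 0.18 (SE 0.07, adjusted p = 0.268).

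The 3 abundant genes had the smallest standard errors. HOXB2 had a log2 fold change of −0.05 (SE 0.11, adjusted p = 0.849) and HOXB3 of −0.06 (SE 0.07, adjusted p = 0.724). The other 5 genes were less precise, with standard errors from 0.25 for HOXC4 to 0.67 for HOXB9, and log2 fold changes from −0.39 (HOXA7) to 0.92 (HOXB9). The summed HOX level was 836 ± 70.6 CPM in control and 851 ± 40.9 CPM with TGF-β. The 30 members that did not pass the filter are too low in these libraries for a statement about TGF-β. Of 6 Müllerian markers 3 fell with TGF-β, MSLN, EMX2 and WT1 (log2 fold change −0.77, −0.49 and −0.47). In this comparison 2.26% of all genes tested were called in either direction. EMX2 lost its call in all fits with a library left out but that without control replicate 1 (adjusted p 0.070 to 0.130), and WT1 without control replicate 2 or any treated library (0.092 to 0.150). With all 12 libraries in 1 model the adjusted p was 0.759 for EMX2 and 0.302 for WT1. Their part in the HOX values was not tested.

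Set against both colorectal lines, control PEO4 differed at 33 of 34 tested HOX genes, 3 higher and 30 lower. Of all 22936 genes tested, 58.0% were called, 28.9% higher and 29.1% lower. HOXB2 was higher by 5.37 on the log2 scale (SE 0.20), HOXB3 by 1.87 (SE 0.14) and HOXB4 by 1.52 (SE 0.21). The HOXB4 level of SW480 replicate 2 (160 CPM) lay inside the PEO4 range, and HOXC4 was not called (log2 fold change −0.30, SE 0.26, adjusted p = 0.343): it had 3.15, 3.40 and 3.67 CPM in control PEO4, between the SW480 and SW620 means. The libraries did not overlap for 32 of the 34, against 44.0% of all genes.

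Of the 30 lower genes, 13 were at or under 3 counts in every control PEO4 library, so only a bound can be given. Measured from the lower of the 2 colorectal means to a floor of 3 counts per library, these were at least 2.86-fold lower (HOXD13) to at least 63.0-fold lower (HOXC9). The other 17 had fitted folds from 5.28 to 292, among them HOXB8 and HOXB9 (log2 fold change −8.19 each, SE 0.46 and 0.42) and HOXA9 (−7.77, SE 0.43), whose PEO4 counts did not exceed 3 times the other-line share in any library. The median log2 fold change over the 34 was −6.17 as fitted and −4.63 with the 13 genes at their bound, against −0.08 over all genes tested. Scaling by total counts moved the median of all genes by −0.28, and higher genes then made up 37.5% of all calls in place of 49.8%. The 3 higher genes were called under every alternative.

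Genes that work with HOX proteins or near the clusters were read from lists chosen with results of these data known. Among the TALE cofactors, 10 of 11 were tested between the colorectal lines, 5 fell and 1 rose in SW620. These counts stand against 17.0% lower and 13.5% higher of all genes tested. PBX3 fell from 23.0, 21.7 and 20.2 CPM to 4.38, 3.01 and 4.46 CPM (log2 fold change −2.43, SE 0.21, adjusted p = 4.58e-05) and MEIS3 from 52.4, 60.0 and 49.0 CPM to 13.2, 14.9 and 12.3 CPM (−1.98, SE 0.16, adjusted p = 3.52e-05). PBX4 (−2.12) and MEIS2 (−1.58) fell too, and MEIS1 rose (0.94, lost without any SW480 library or SW620 replicate 3, adjusted p up to 0.0925). In PEO4, MEIS1 was the single gene of this and all the HOX-related lists to pass the test with TGF-β. It had 287, 331 and 327 CPM in control and 195, 218 and 206 CPM with TGF-β (−0.64, SE 0.09, adjusted p = 0.012), and lost the call without control replicate 2 or treated replicate 1 or 2 (0.054 to 0.066) and with all 12 libraries in 1 model (0.114).

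PBX proteins pair with HOX proteins on a shared motif, spelled TGATTNAT here, which was searched on both strands in the 250 bases before the RefSeq start of the 27 HOX entries available (20 genes). It was found in 2 of 27, HOXA2 and HOXD11, or 7.41%, against 2.48% of 35116 promoters. Another motif searched, CATAAA, was found in 3 of 27, or 11.1%, against 9.64%. The entries are not all separate promoters, since HOXA3 has several and HOXC4 and HOXC5 have the same stretch. The stretch before HOXD11 (GRCh38.p14, chr2:176107030-176107279, plus strand, 61.6% G and C, inside the annotated span of HOXD11 but in none of its exons) is shown as an example of a match whose stretch lies outside annotated exons. Capitals mark the TGATTNAT match, which reads on the reverse strand. It is a match of letters, and binding was not measured.
HOXD11 upstream: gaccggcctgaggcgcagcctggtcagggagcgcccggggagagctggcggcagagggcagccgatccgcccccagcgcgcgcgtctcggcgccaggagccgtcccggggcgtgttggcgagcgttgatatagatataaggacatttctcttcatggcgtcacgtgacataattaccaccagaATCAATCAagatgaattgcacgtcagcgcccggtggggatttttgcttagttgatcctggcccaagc

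Of the Polycomb subunits, 23 were tested, 5 rose and 4 fell in SW620, with a median log2 fold change of 0.00. The 9 called of 23, like the 2 of 13 and 2 of 7 of the next lists, stand against 30.5% of all genes tested. Among those with the largest change were CBX7 (−1.47), CBX2 (1.22), PCGF2 (−1.09) and PHC3 (−0.92), subunits of the complex that compacts chromatin at silent clusters. The list of MLL subunits and H3K27 demethylases, which also holds DOT1L, a histone methyltransferase of neither kind, had 13 members tested: DOT1L (0.91) and the demethylase KDM6B (0.77) rose and none fell. KDM6B lost its call without SW480 replicate 1 or 3 or SW620 replicate 1 (adjusted p 0.060 to 0.080). Of 7 insulator genes, STAG1, a cohesin subunit, fell (−0.86) and CTCF rose (0.70), the latter called with SW620 replicate 2 left out but with no other library left out (0.082 to 0.127).

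Retinoic acid genes had 4 of 8 tested members lower in SW620 and none higher. This list and the caudal list below stand against 17.0% lower and 13.5% higher of all genes tested. CYP26A1, the enzyme that breaks retinoic acid down and is itself induced by it, had 6.54, 3.39 and 6.07 CPM in SW480 and 0.195, 0.323 and 0.0464 CPM in SW620 (log2 fold change −4.79, SE 0.58, adjusted p = 0.000299). The receptors RARG (−1.45), RARA (−1.33) and RXRA (−0.71) fell as well. RXRA lost its call without SW480 replicate 1 or 3 or SW620 replicate 1 (adjusted p 0.089 to 0.129). Among the caudal and ParaHox factors 3 were tested and PDX1 fell (−1.98, SE 0.31, adjusted p = 0.0013). In PEO4 none of the Polycomb, MLL, insulator or retinoic acid genes tested (23, 13, 7 and 7) passed the test with TGF-β. Of all genes tested there, 2.26% passed.

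RNA genes inside the clusters were mostly long noncoding or antisense transcripts. Between the colorectal lines 17 of 24 were tested, of which 9 fell and 1 rose. Over all genes tested, 17.0% fell and 13.5% rose. HAGLR, which lies at the HOXD1 side of cluster D, had 15.4, 11.8 and 17.0 CPM in SW480 and 0.438, 0.753 and 1.16 CPM in SW620 (log2 fold change −4.19, SE 0.36, adjusted p = 4.18e-05). HAGLROS (−3.51), HOXB-AS2 (−2.64), HOXB-AS1 (−2.19) and HOTAIRM1 (−1.89) followed. Without knowledge of strand, reads of an antisense RNA and of its partner gene cannot be told apart. In control PEO4, HOXB-AS2 was at 18.6 ± 5.15 CPM and HOXB-AS1 at 2.46 ± 0.387 CPM, and HOXB-AS3 and HOXB-AS4, at the HOXB5 to HOXB9 end of the cluster, were at 0.245 and 0.0382 CPM, against 59.1 and 11.1 CPM in SW480.

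The called protein-coding genes next to the clusters went partly with them and partly against them. TTLL6 and SKAP2 fell like most called HOX genes beside them, while SKAP1 and CALCOCO1 went the other way. At cluster B, where every tested HOX gene fell, SKAP1 (98.3 kb away), an adaptor of T-cell signalling, rose by a log2 fold change of 0.58 (SE 0.15, adjusted p = 0.0143) and TTLL6 (33.1 kb), a tubulin glutamylase, fell (−2.08, SE 0.66, adjusted p = 0.0411). At cluster C, where 6 HOX genes rose, CALCOCO1 (211.0 kb) fell (−0.75, adjusted p = 0.00718, and 0.065 without SW620 replicate 1) and SMUG1 (65.2 kb) had a log2 fold change of 0.21 (adjusted p = 0.32). At cluster A, SKAP2 (97.8 kb) fell (−0.85, adjusted p = 0.0109) and EVX1 (42.6 kb) was too low to test. At cluster D, MTX2 (78.5 kb) had a log2 fold change of 0.23 (adjusted p = 0.463) and EVX2 (9.0 kb) had at most 1 count. SKAP1 and SKAP2 lost their calls without SW480 replicate 1 or 3 or SW620 replicate 1 (adjusted p 0.053 to 0.079 and 0.055 to 0.075), SKAP1 also without a count filter (0.059), and TTLL6 in all fits with a library left out but that without SW620 replicate 3 (0.069 to 0.125).

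**Figure D5:**
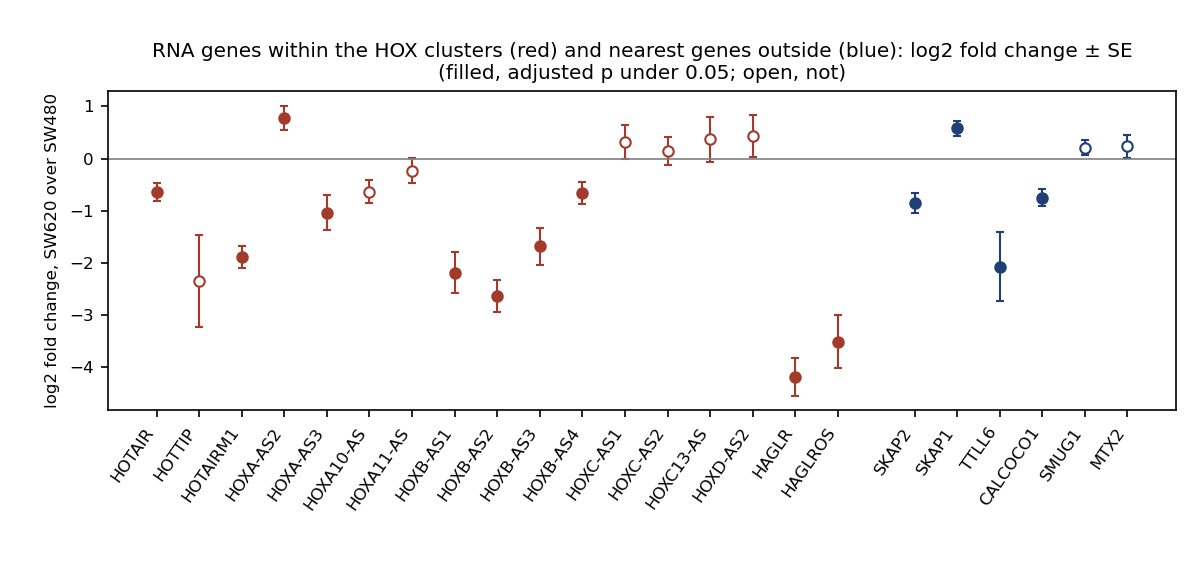
Log2 fold change of SW620 over SW480 with its standard error for the 17 tested RNA genes inside the HOX clusters (red) and the tested nearest genes outside them (blue), filled where adjusted p is under 0.05. HAGLR (−4.19) lies lowest, and SKAP1 next to cluster B lies above 0 at 0.58.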

How the data were processed

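The deposited table holds raw read counts per gene, which the authors made with Trimmomatic 0.36, STAR 2.5.2b and featureCounts (Subread 1.5.2) on GRCh38, per the submitters' processing notes; DESeq2 is also named there. The libraries were rRNA-depleted total RNA, per the labels' protocols. Annotation release, strand setting and treatment of reads with several matches are not given in the sources used here. The counts were used as deposited, in R 4.3.3 and Python 3.11.15. Of 57500 genes, 14364 had 0 counts everywhere. The table held 0 columns of other samples.

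The libraries of each comparison were fitted separately in edgeR 4.0.16 (filterByExpr, TMM, glmQLFit, glmQLFTest, two-sided), with Benjamini-Hochberg adjustment over all genes tested and a threshold of 0.05, without a replicate block. The script was tested on simulated counts. CPM used TMM-scaled totals over all 12 libraries, and levels per kilobase used the union of GENCODE 29 exons. Floors of 3 counts cover counting error only. Alternatives were DESeq2 1.42.0, limma-voom (limma 3.58.1), RLE and total-count scaling, no count filter, at least 10 counts in every library, all 12 libraries in 1 model, a replicate block, and each library left out.

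Same-numbered SW480 and SW620 libraries deviated together (correlations 0.193, 0.778 and 0.704 over 14327 genes), so the numbers may pair these libraries. Of the 3 SW480 libraries, 2 correlated best with their own number. The main test and the fits with a library left out did not use this pairing, so calls lost there were lost in unpaired fits. It entered only through the replicate block, with 28 HOX genes and 50.9% of all genes called. Without the block these were 27 and 30.5%. The pairing comes from the data, since the labels name no shared culture or day.

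All HOX genes were accounted for in the counts, and a few items are not reported here. Those past the threshold in a fit, and the gene of highest level per length in each cluster and group, were described in depth. From each list at most the 5 called genes with the largest change were named, besides CDX2 and the genes flanking each cluster; HOXB-AS3, HOXB-AS4, MEIS1, PAX8 and the marker genes were named after their values were seen. The members and lists were chosen with earlier results of these data known. Sequences came from GENCODE 29 transcripts and RefSeq promoters. The microRNA genes of the clusters were not analysed here.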

Additional observations from a re-analysis of the deposited data

How the results depend on the processing

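Between SW620 and SW480 the number of HOX genes called (27) was 22 to 28 under the alternatives other than left-out libraries, 28 of them with the replicate block, and 15, 16 and 17 without SW480 replicate 1, SW480 replicate 3 and SW620 replicate 1 (range 15 to 25). All genes called (6385) ran from 4253 to 7419 with 1 library left out and numbered 10667 with the replicate block. The block added HOXA10 and removed no HOX call. Of the values of single HOX genes, 8 reversed sign, all of uncalled genes. With 1 library left out HOXA11 ran from −0.1244 (SW480 replicate 2; −0.0603 for SW620 replicate 3) to 0.1979, HOXC8 from −0.2226 to 0.1114 (above 0 without SW480 replicate 1, SW620 replicate 1 or SW620 replicate 3), HOXC9 from −0.1019 (SW620 replicate 2) to 0.3819 and CDX2 from −0.2217 to 0.1279 (above 0 without SW480 replicate 3, SW620 replicate 1 or SW620 replicate 2). HOXC8 was at 0.0644 and CDX2 at 0.0108 with total-count scaling, and HOXC8 at 0.0292 with 10 counts in every library. In PEO4 no HOX gene was called under any alternative, while all genes called (431) numbered 967 by DESeq2, 1457 without a count filter, 165 with all 12 libraries in 1 model, 2102 with the replicate block and 72 to 1080 with 1 library left out. They numbered 119 without the number 3 libraries of both PEO4 groups, an alternative chosen after seeing the data. The PEO4 numbers share only a number (correlations 0.394, −0.028 and 0.568; 2 of 3 control libraries correlate best with their own number). With 1 library left out, HOXA7 ran from −1.1502 to 0.0746, HOXB2 from −0.1233 to 0.0594, HOXB5 from −0.2443 to 0.5313, HOXC4 from −0.1514 to 0.1495, SKAP2 from −0.0001 to 0.3561, SMUG1 from −0.0002 to 0.2041 and MTX2 from −0.1566 to 0.0041. Against the colorectal lines 33 HOX genes were called with any library left out, 35 without a filter and 7 with at least 10 counts in every library, a rule that leaves few HOX genes to test. The HOX genes with a library above 3 counts numbered 16 to 22 in control and 17 to 23 in treated PEO4, 37 to 38 in SW480 and 35 to 36 in SW620 with 1 library left out. Under a rule of 10 counts in every library 8 control and 7 treated PEO4 genes passed. For the other changes the cause was not tested. The 5 untested colorectal genes and the 30 untested PEO4 genes had too few counts for the test, and low expression and limited depth cannot be told apart there.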
